A study of Mus musculus with 10 samples.

Results

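Connexins and pannexins form large pores in the cell membrane. The 8 genes described here, the connexins Gja1, Gja4, Gjb2, Gjb5 and Gjc1 and the pannexins Panx1, Panx2 and Panx3, were found by matching the Ensembl identifiers of the deposited tables to gene symbols, and are 8 of the 40620 genes listed. RNA was sequenced from MC3T3-E1 cells, a mouse calvarial pre-osteoblast line that the study obtained as subclone 4, a single clone, so all stages share 1 genetic background. Subconfluent and confluent cells were kept in growth medium, αMEM with 10% serum. Cells of the other 3 stages were moved at confluence to differentiation medium, in which ascorbic acid (50 µg/ml) and β-glycerophosphate (10 mM) are added, and were collected at 24 h, 14 d and 21 d. Each of the 5 stages has 2 libraries, replicates A and B, and the course asks how expression changes as pre-osteoblasts become mineralizing osteoblasts. No culture kept in growth medium for 24 h, 14 d or 21 d was analysed here, so time in culture, cell density and medium cannot be told apart.

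Connexin proteins assemble into a hemichannel in one cell that docks with a hemichannel of its neighbour, and the resulting gap junction lets ions and small metabolites pass directly between cells. Undocked connexin hemichannels and pannexin channels instead open to the outside and release ATP, which acts on purinergic receptors and is broken down by enzymes on the cell surface. In bone, Gja1 encodes the main gap junction protein of osteoblasts and osteocytes, and Panx3 is known from osteoblasts and growth plate chondrocytes.

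Total counts ran from 44736156 to 162939333 per library. The labels do not say whether replicates A and B came from separate cultures, so p-values measure the spread between these libraries, which may be technical. Replicates lay further apart at 24 h than elsewhere: over 16133 genes, the SD of the log2 ratio of A to B was 0.685 at 24 h and 0.287 to 0.325 at the other stages. The subconfluent, confluent and 24 h libraries were made with one pair of index sequences, as the column headers show, and those of 14 d and 21 d with a different pair. Stage and index pair therefore cannot be told apart where 14 d is compared with 24 h or with confluent cells. The same holds for 21 d against subconfluent cells. The libraries of the other 3 comparisons share an index pair but differ in lane and depth, and the headers name no batch. Of 10 osteoblast markers, 9 were above 1 RPKM in every library. Markers of 3 cell types that use other connexins were mostly low: all 6 endothelial markers stayed below 1 RPKM everywhere, 5 of 6 adipocyte markers did, and the summed level of 6 epithelial markers, of which 2 were at 0 in every library, ran from 0.814 to 2.62 RPKM in the first 3 stages and from 6.36 to 11.2 RPKM at 14 d and 21 d. Of 6 blood markers, 2 were above 1 RPKM in every library and 2 at 0 in every library, and their sum ran from 8.17 to 13.8 RPKM. The part of these epithelial and blood markers in the changes below was not tested. In such bulk samples, fewer cells of a type and less RNA per cell cannot be told apart.

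Levels are given as RPKM, read counts scaled by gene length and sequencing depth, as the authors deposited them, and can be compared between genes because they are per length. Changes are log2 fold changes with standard errors from edgeR's quasi-likelihood test on the counts of all 10 libraries. They include a further scaling between libraries, TMM, which RPKM levels and their sums lack, so they can differ from ratios of the RPKM printed. At 14 d against confluent cells the median change over genes was -0.166 on log2(RPKM + 0.1) and 0.029 in the edgeR fit. A change passed at an adjusted p (Benjamini-Hochberg over all 20808 genes tested) under 0.05. Of the 8 genes, 7 could be tested, and Gjb2 was removed by the filter on low counts.

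RefSeq holds an upstream window for 5 of the 8 genes in the table used here (build GRCm38.p6): Gja1, Gja4, Gjb2, Gjb5 and Panx1, and no entry for Gjc1, Panx2 and Panx3. Windows are shown so that detected and undetected genes can be compared. They are those of Gja1, Gjb5 and Panx1, which fell during the course, and of Gjb2, which gave no read. Each is the 250 bases before the RefSeq start, on the strand of the gene, and capitals mark matches on either strand to the AP-1 motif TGANTCA, the GC box GGGCGG, the RUNX core TGTGGT or the TATA motif TATAAA.
Gja1, chr10:56377050-56377299, plus strand: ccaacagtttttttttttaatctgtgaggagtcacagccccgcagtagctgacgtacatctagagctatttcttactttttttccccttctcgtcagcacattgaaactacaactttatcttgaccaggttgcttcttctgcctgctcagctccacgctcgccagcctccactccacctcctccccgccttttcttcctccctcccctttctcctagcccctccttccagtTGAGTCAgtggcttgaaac
Gjb5, chr4:127358165-127358414, minus strand: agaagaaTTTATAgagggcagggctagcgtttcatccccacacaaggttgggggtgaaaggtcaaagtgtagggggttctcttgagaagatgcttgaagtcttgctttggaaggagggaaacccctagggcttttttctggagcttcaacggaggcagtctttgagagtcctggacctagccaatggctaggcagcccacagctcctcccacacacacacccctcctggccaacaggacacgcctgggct
Panx1, chr9:15045479-15045728, minus strand: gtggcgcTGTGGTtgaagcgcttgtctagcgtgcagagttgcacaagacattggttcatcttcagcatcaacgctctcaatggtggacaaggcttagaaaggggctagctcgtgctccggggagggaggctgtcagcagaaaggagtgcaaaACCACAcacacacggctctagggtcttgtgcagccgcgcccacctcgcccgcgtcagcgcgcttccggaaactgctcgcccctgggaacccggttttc
Gjb2, chr14:57104703-57104952, minus strand: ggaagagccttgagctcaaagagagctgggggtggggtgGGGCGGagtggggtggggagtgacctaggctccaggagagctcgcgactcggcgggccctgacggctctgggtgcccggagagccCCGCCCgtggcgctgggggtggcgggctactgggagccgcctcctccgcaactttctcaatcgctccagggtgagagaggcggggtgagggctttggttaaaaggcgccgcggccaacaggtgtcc
The AP-1 match of Gja1 lies 19 to 13 bases before the start, and 6.75% of the 32851 windows of this length hold the motif. Panx1 holds 2 RUNX core matches, a motif found in 14% of windows. The single TATA match of Gjb5, present in 12.4% of windows, lies 243 to 238 bases upstream. Gjb2 holds 2 GC boxes, a motif of 32.7% of windows, and its window has 69.2% G and C against a median of 52.4% over all windows. The detected genes had 50% in Gja1, 54.4% in Gjb5, 59.6% in Panx1 and 61.2% in Gja4. The window of Gja4, not shown, also holds a GC box. No match overlaps another, and a match is a description of letters, not evidence of a bound factor.

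How well reads separate the paralogs can be read from their sequences. Panx1 and Panx3 share at most 10 consecutive coding bases, fewer than the 51 of a read. Of all 51-base windows of their GENCODE transcripts, 13 of 10449 in Gja1 (0.124%) and 1 of 5047 in Gjc1 also occur in a transcript of another gene, and 0 in the other 6 genes. No exon of the 8 genes overlaps an exon of another gene.

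Gja1 (ENSMUSG00000050953, chr10:56377330-56402513, plus strand, GRCm38) was the most abundant connexin at every stage and fell through the course. It stood at 54.1 and 52.6 RPKM in subconfluent replicates A and B, 49.0 and 45.2 RPKM in confluent cells, 25.4 and 30.6 RPKM at 24 h, 25.0 and 25.7 RPKM at 14 d, and 12.2 and 12.9 RPKM at 21 d. Both replicates of a stage lay below both of the stage before it at each step except from 24 h to 14 d, where they overlapped. The level of Gja1 at 21 d was 3.92-fold lower than in subconfluent cells (log2 fold change -1.97 ± 0.09, adjusted p = 7.6e-06). This fall took place in 2 steps that passed the test, -0.66 ± 0.09 from confluent cells to 24 h (adjusted p = 0.0094) and -1.09 ± 0.09 from 14 d to 21 d (adjusted p = 0.00073). From subconfluent to confluent cells the change was -0.21 ± 0.09 (adjusted p = 0.31), and from 24 h to 14 d it was -0.02 ± 0.09 (adjusted p = 0.94). At 14 d Gja1 was 1.6-fold below confluent cells (-0.68 ± 0.09, adjusted p = 0.0016). The call at 24 h was lost without confluent replicate A (-0.61, adjusted p = 0.075), and also when only the 4 libraries of those 2 stages were fitted (-0.66, adjusted p = 0.38). In that edgeR fit 0 genes passed and 1824 had an unadjusted p under 0.05, while 2723 passed with DESeq2 on all libraries. At the start, 6.44% of 40602 genes had a higher RPKM than Gja1, and at 21 d 15.9% had.

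Gjc1 (ENSMUSG00000034520, chr11:102799579-102819700, minus strand), a connexin of the heart conduction system and of vascular and bone cells, was the next most abundant and fell with each stage. Its levels in replicates A and B were 11.4 and 11.1 RPKM in subconfluent cells, 7.50 and 6.97 RPKM in confluent cells, 5.76 and 5.56 RPKM at 24 h, 4.36 and 4.33 RPKM at 14 d, and 3.94 RPKM in both libraries at 21 d. Every stage lay below the one before it with no overlap of replicates, and the largest single drop came at confluence. Gjc1 was 1.59-fold lower in confluent than in subconfluent cells (-0.67 ± 0.09, adjusted p = 0.009). The later steps were each -0.22 to -0.26 and did not pass (adjusted p = 0.13, 0.083 and 0.18), although 14 d against confluent cells did (-0.52 ± 0.09, adjusted p = 0.0038). Over the whole course the gene fell 2.64-fold, by -1.40 ± 0.09 (adjusted p = 2e-05). The confluent call was lost without subconfluent replicate A (adjusted p = 0.1), without subconfluent replicate B (0.08) or without confluent replicate B (0.1), with log2 fold changes between -0.70 and -0.62. Leaving out single 24 h libraries brought later steps past the threshold: 24 h against confluent without 24 h replicate A (-0.34, adjusted p = 0.034), 14 d against 24 h without 24 h replicate B (-0.38, adjusted p = 0.0037), and 21 d against 14 d without 24 h replicate A or B (-0.22 in both, adjusted p = 0.038 and 0.031).

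**Figure D1:**
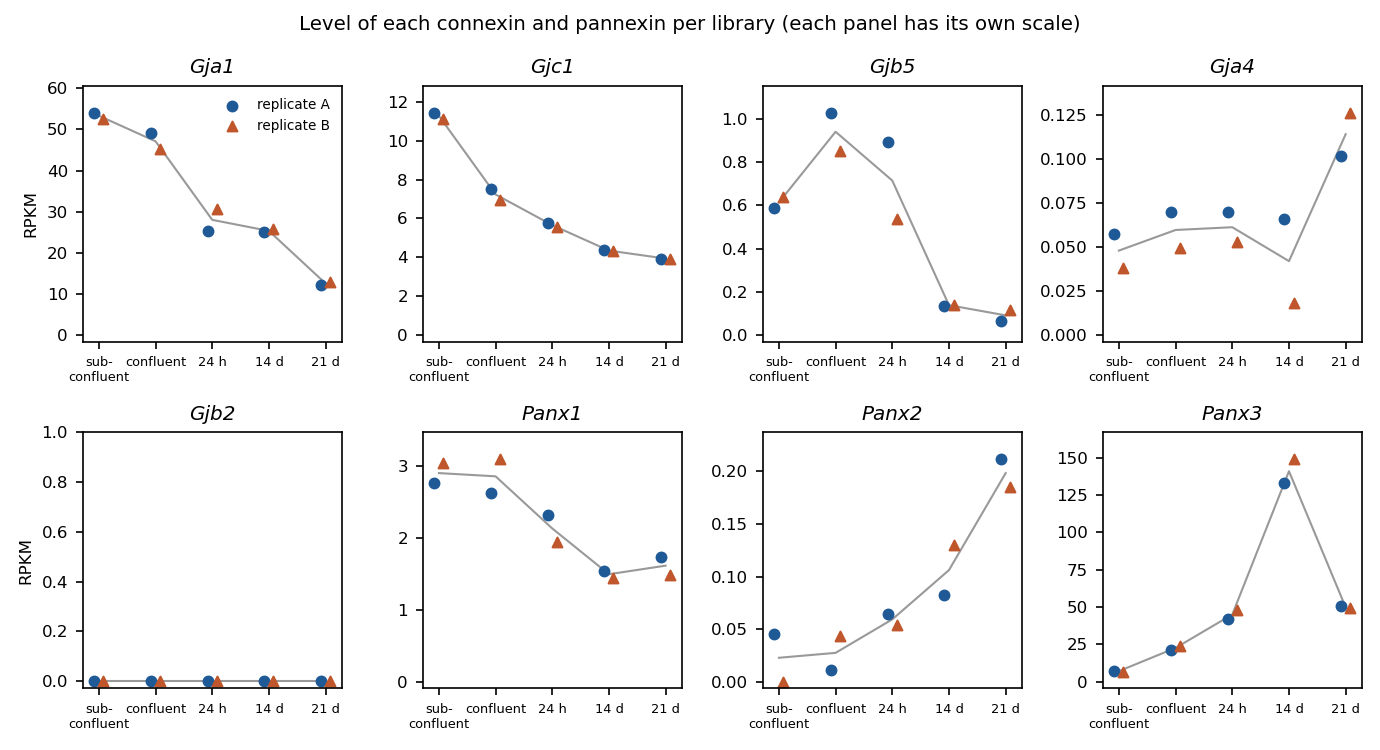
RPKM of each of the 8 genes (vertical axis, from 0, a separate scale in each panel) at the 5 stages (horizontal axis), with circles for replicate A, triangles for replicate B and a grey line through the stage means. Gja1 and Gjc1 descend from subconfluent cells to 21 d, Panx3 peaks at 14 d at 132.9 and 149 RPKM, and Gjb2 is at 0 in all 10 libraries.

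Gjb5 (ENSMUSG00000042357, chr4:127354809-127358181, minus strand), a connexin of stratified epithelium and placental trophoblast, was low throughout and dropped between 24 h and 14 d. Its levels were 0.587 and 0.638 RPKM in subconfluent cells, 1.03 and 0.851 RPKM in confluent cells, 0.890 and 0.538 RPKM at 24 h, 0.136 and 0.141 RPKM at 14 d, and 0.0665 and 0.116 RPKM at 21 d, resting on 34 to 158 counts in the first 3 stages and 4 to 21 counts in the last 2. All 6 early libraries were above all 4 late ones, while the 24 h replicates overlapped those of subconfluent and confluent cells. At 14 d Gjb5 was 4.76-fold lower than at 24 h (-2.25 ± 0.39, adjusted p = 0.0097) and 5.81-fold lower than in confluent cells (-2.54 ± 0.39, adjusted p = 0.0027). The fall from subconfluent cells to 21 d was 5.89-fold (-2.56 ± 0.40, adjusted p = 0.0014). The step from 24 h to 14 d did not pass without 14 d replicate A (-2.20, adjusted p = 0.08) or B (-2.30, adjusted p = 0.075), nor with those 2 stages alone (-2.29, adjusted p = 0.13). The epithelial markers, given above, summed to more at 14 d and 21 d, where Gjb5 was lowest, than at the earlier stages, and their part in its change was not tested.

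Gja4 (ENSMUSG00000050234, chr4:127311421-127314039, minus strand), the connexin of endothelium and of oocytes, was at the edge of detection. Its 10 libraries held 1 to 17 counts each, or 0.018 to 0.126 RPKM, and the highest values were both replicates at 21 d, 0.102 and 0.126 RPKM. The 6 endothelial markers summed to 0.0122 to 0.107 RPKM over the libraries, also near 0. No comparison of Gja4 passed, and the largest difference, 21 d against subconfluent cells, was 1.29 ± 0.60 (adjusted p = 0.11). Gjb2 (ENSMUSG00000046352, chr14:57098600-57104702, minus strand), the connexin of the cochlea and of skin, had 0 counts in all 10 libraries. A count of 0 allows up to 3 counts, which is 0.0116 to 0.0403 RPKM depending on the depth of the library, for counting error only.

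Of the 15 other connexins with a row, 5 were tested and 3 passed from subconfluent cells to 21 d, where 50.7% of all genes did, 2 of them higher, with a median log2 fold change of 0.35 against 0.04 over all genes. Gjc3, a connexin of myelinating glia named here after its values were seen, was at 0.0184 to 0.0194 RPKM in subconfluent cells and 0.456 to 0.502 RPKM at 21 d (4.73 ± 0.75, adjusted p = 0.0015).

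Summed over the 20 connexin genes, RPKM fell from 72.2 ± 1.23 (SD, n = 2) in subconfluent cells to 59.1 ± 3.44 in confluent cells, 38.7 ± 2.71 at 24 h, 33.8 ± 0.362 at 14 d and 21.0 ± 0.876 at 21 d. Gja1 made up 73.9% ± 0.18, 79.7% ± 0.069, 72.3% ± 4.5, 75% ± 0.74 and 59.8% ± 0.29 of this sum at the 5 stages in turn. Its share was thus lowest at 21 d, where both replicates (60% and 59.6%) lay below all 8 other libraries. Gjc1 held 15.6% ± 0.049 of the sum in subconfluent cells and 18.8% ± 0.8 at 21 d.

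**Figure D2:**
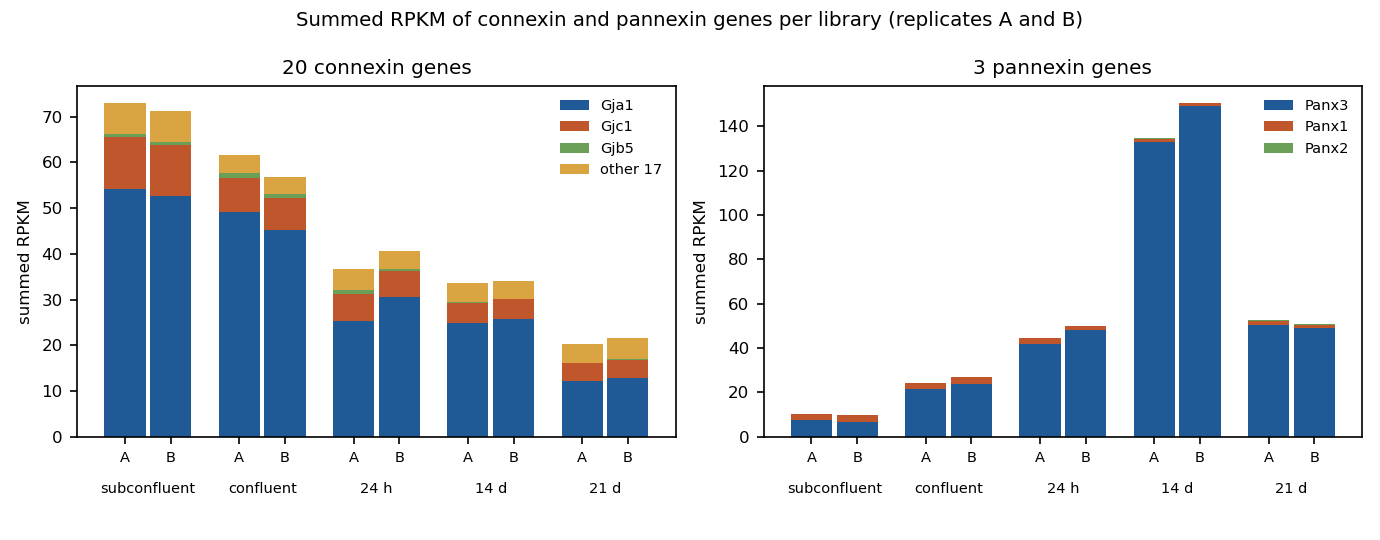
Stacked bars of summed RPKM (vertical axis, from 0) in each library, replicates A and B side by side at each stage, for 20 connexin genes at left and 3 pannexin genes at right, coloured by gene. The connexin sum falls from 73.0 and 71.3 to 20.4 and 21.6 RPKM, and the pannexin sum, nearly all Panx3, rises to 134.5 and 150.6 RPKM at 14 d.

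Panx3 (ENSMUSG00000011118, chr9:37659902-37669235, minus strand), the pannexin of skeletal cells, rose at each step to 14 d and then fell. It stood at 7.35 and 6.72 RPKM in subconfluent cells, 21.5 and 23.7 RPKM in confluent cells, 42.0 and 47.9 RPKM at 24 h, 132.9 and 149 RPKM at 14 d, and 50.5 and 49.1 RPKM at 21 d. No 2 stages overlapped, and the order of the means was subconfluent, confluent, 24 h, 21 d, 14 d. The closest neighbours in that order were 24 h and 21 d, whose means differed by 4.8 RPKM where the larger SD was 4.2 RPKM. Panx3 passed in all 6 comparisons. It was 3.15-fold higher in confluent than in subconfluent cells, before any osteogenic medium (1.66 ± 0.11, adjusted p = 0.00081). The next steps were 1.08 ± 0.10 at 24 h (adjusted p = 0.003) and 1.78 ± 0.11 from 24 h to 14 d (adjusted p = 0.00015). From 14 d to 21 d Panx3 fell 2.98-fold (-1.58 ± 0.11, adjusted p = 0.0004), and it remained 7.66-fold above subconfluent cells (2.94 ± 0.11, adjusted p = 3.6e-06). Against confluent cells, 14 d was 7.25-fold higher (2.86 ± 0.11, adjusted p = 1.1e-05). Of its 6 calls only that of the 24 h step was lost under any alternative run, in the fit of those 2 stages alone (1.08, adjusted p = 0.21). Cartilage markers, of which 3 of 8 were above 1 RPKM in every library and none at 0 throughout, summed to 179 to 182 RPKM in subconfluent cells, 95.9 to 105 in confluent cells, 53.6 to 71.8 at 24 h, 248 to 259 at 14 d and 123 to 134 at 21 d. Most of that sum was the cartilage collagen Col2a1, with stage means of 156.6, 78.0, 39.0, 206.1 and 75.7 RPKM in the same order. Of the 6 markers tested, 1 passed in confluent against subconfluent cells, Col2a1, which fell, where 3.28% of all genes passed. At 24 h against confluent cells 2 passed, 1 in each direction (5.15% of all genes). At 14 d 5 passed against confluent cells (32.1% of all genes) and 5 against 24 h (17.3%), all higher. At 21 d 3 markers passed against 14 d (9.72%), 1 higher and 2 lower. Against subconfluent cells 6 markers passed at 21 d (50.7%), 5 higher and 1 lower. Osteoblast markers summed to 9360 to 9650, 9960 to 10200, 7490 to 11400, 19900 to 21600 and 12500 to 13700 RPKM in stage order. Of these 10, 4 passed in confluent against subconfluent cells and 3 at 24 h against confluent cells, all higher. At 14 d 8 passed against confluent cells and 7 against 24 h, all higher. At 21 d 6 passed against 14 d, 1 higher and 5 lower, and 8 against subconfluent cells, 7 higher and 1 lower. Shares of all genes are as above. The part of either marker list in the level of Panx3 was not tested. By RPKM, 23.8% of genes stood above Panx3 in subconfluent cells and 2.91% at 14 d.

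Panx1 (ENSMUSG00000031934, chr9:15002128-15045478, minus strand), the broadly expressed ATP-release channel, moved the other way and by less. Its levels were 2.77 and 3.04 RPKM in subconfluent cells, 2.62 and 3.10 RPKM in confluent cells, 2.32 and 1.95 RPKM at 24 h, 1.54 and 1.45 RPKM at 14 d, and 1.74 and 1.49 RPKM at 21 d. The 4 growth-medium libraries lay above the 24 h pair, which lay above the 4 late libraries, with overlap between subconfluent and confluent cells and between 14 d and 21 d. No single step passed, but 14 d was 1.65-fold below confluent cells (-0.72 ± 0.17, adjusted p = 0.018) and 21 d 1.66-fold below subconfluent cells (-0.73 ± 0.17, adjusted p = 0.01). The 14 d call was lost without confluent replicate B (-0.59, adjusted p = 0.1), 14 d replicate A (-0.75, adjusted p = 0.084) or 14 d replicate B (-0.70, adjusted p = 0.099), and the 21 d call without subconfluent replicate B (-0.70, adjusted p = 0.056) or 21 d replicate B (-0.63, adjusted p = 0.075). Without 24 h replicate B, 14 d against 24 h passed (-0.60, adjusted p = 0.022).

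Panx2 (ENSMUSG00000058441, chr15:89059734-89073567, plus strand), a pannexin best known from the nervous system, rested on few reads: 12 and 0 counts in subconfluent cells, 1 and 12 in confluent cells, 14 and 11 at 24 h, 19 and 11 at 14 d, and 19 and 38 at 21 d. In RPKM the 21 d pair, 0.212 and 0.185, was above all 8 other libraries, of which the highest was 0.130. Of the 6 neuron and glia markers, 5 were below 1 RPKM in every library, and their sum, 8.4 to 9.61 RPKM at 21 d and 11.5 to 26.1 RPKM at the other stages, was nearly all the tubulin Tubb3. The difference between 21 d and subconfluent cells was 2.87 ± 0.90 (adjusted p = 0.031), the only one to pass. It was lost without subconfluent replicate B (2.18, adjusted p = 0.067), 14 d replicate A or B (2.88 and adjusted p = 0.052 in both), 21 d replicate A (2.79, adjusted p = 0.097) or 21 d replicate B (2.98, adjusted p = 0.089). The size of this change was not well determined: limma-trend on log2(RPKM + 1) gave 0.23, limma-trend on log2(RPKM + 0.1) gave 1.31, and without subconfluent replicate A the fit gave 8.06, a value that depends on the prior count because the remaining subconfluent library had 0 counts.

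The sum of the 3 pannexins was 9.96 ± 0.288 RPKM (SD, n = 2) in subconfluent cells, 25.5 ± 1.88 in confluent cells, 47.2 ± 3.94 at 24 h, 142.6 ± 11.4 at 14 d and 51.6 ± 1.2 at 21 d. Panx3 made up 70.6% ± 2.4 of it at the start and 98.9% ± 0.11 at 14 d. For each unit of Panx1 RPKM there were 2.43 ± 0.31 of Panx3 in subconfluent cells and 94.5 ± 12 at 14 d. The balance between the leading pannexin and the leading connexin turned over: Panx3 stood at 0.132 ± 0.0058 of the RPKM of Gja1 in subconfluent cells, 0.482 ± 0.06 in confluent cells, 1.61 ± 0.062 at 24 h, 5.56 ± 0.34 at 14 d and 3.97 ± 0.23 at 21 d. Panx3 was below Gja1 in all 4 growth-medium libraries and above it in all 6 libraries in differentiation medium. These ratios carry no test.

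**Figure D3:**
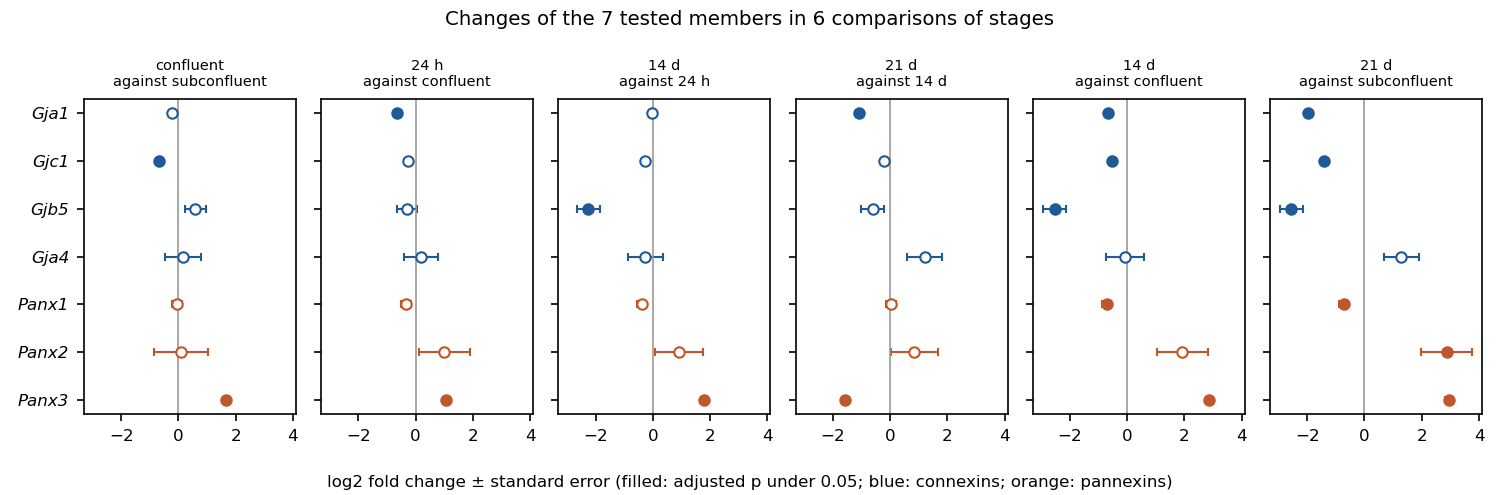
Log2 fold change (horizontal axis) with its standard error for the 7 tested genes (rows) in 6 comparisons of stages (panels), where filled points passed at an adjusted p under 0.05 and blue and orange mark connexins and pannexins. Panx3 is filled in every panel, to the left of 0 only from 14 d to 21 d, and Gja1 is filled to the left of 0 in 4 panels.

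Counted over the 7 tested genes, 2 passed in confluent against subconfluent cells (Panx3 higher, Gjc1 lower), where 3.28% of all genes passed. At 24 h against confluent cells 2 passed (Panx3 higher, Gja1 lower) against 5.15% of all genes. In 14 d against 24 h 2 passed (Panx3 higher, Gjb5 lower) against 17.3%. In 21 d against 14 d 2 passed, Gja1 and Panx3, both lower, against 9.72%. In 14 d against confluent cells 5 passed, Panx3 higher and Gja1, Gjb5, Gjc1 and Panx1 lower, against 32.1% of all genes. In 21 d against subconfluent cells 6 passed, Panx2 and Panx3 higher and the same 4 genes lower, against 50.7%. A difference anywhere among the 5 stages was found for 5 genes (Gja1, Gjb5, Gjc1, Panx1 and Panx3) and for 48.9% of all genes, and Panx2 (adjusted p = 0.079) and Gja4 (adjusted p = 0.31) did not pass. With a change of more than 2-fold also required, 1, 1, 2, 2, 2 and 5 of the 7 genes remained in the 6 comparisons in the order given, against 1.43%, 2.13%, 5.98%, 3.97%, 13% and 27.6% of all genes. With so few genes these counts describe the family and say nothing of how it compares with others.

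The genes whose course was most like that of Gja1, by the root mean square difference of log2 CPM about each gene's mean over the 10 libraries, were Rdh11 (0.093), Aacs (0.093), Fads1 (0.106), Srebf2 (0.110) and Ticrr (0.116), where the median of 15739 genes was 0.74. Rdh11 encodes a retinol dehydrogenase, Aacs acetoacetyl-CoA synthetase, Fads1 a fatty acid desaturase, Srebf2 the regulator of cholesterol synthesis genes, and Ticrr a factor that starts DNA replication. Only Srebf2 stayed among the first 5 when the 24 h libraries were left out, with Cdk2 (0.056) then first. For Panx3 the most like were Fam102a (0.198), C1qtnf3 (0.213), Alpl (0.240), Myom1 (0.247) and Tmem119 (0.304), against a median of 1.55, and 4 of these 5 stayed without the 24 h libraries. Alpl is the tissue-nonspecific alkaline phosphatase needed for mineral deposition, Tmem119 a membrane protein of osteoblasts, and C1qtnf3 a secreted protein of cartilage and fat. Fam102a, the nearest of the 5, and Myom1 are not described here, so these descriptions do not cover the whole list. Alpl was picked for its likeness to Panx3 over these same libraries, so its peak at 14 d is no separate finding. Its level was 25.7 ± 2.42 RPKM at 14 d against 1.98 ± 0.193 in subconfluent cells and 9.78 ± 0.415 at 21 d (SD, n = 2).

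Genes that act beside the channels were followed as lists. Of 14 receptors for extracellular ATP and related nucleotides, 9 were tested. From subconfluent cells to 21 d 7 of the 9 passed, where 50.7% of all genes did, and 6 rose and 1 fell (median 1.82 against 0.04 over all genes). From confluent cells to 14 d 5 passed, where 32.1% of all genes did, and 4 rose and 1 fell (median 0.69 against 0.03). P2rx5, an ATP-gated channel subunit, rose from 0.661 ± 0.0159 to 3.87 ± 0.0636 RPKM (2.66 ± 0.15, adjusted p = 1.6e-05), and P2rx7, the subunit opened by high ATP, from 2.34 ± 0.118 to 7.83 ± 0.297 RPKM (1.86 ± 0.16, adjusted p = 7.5e-05). P2ry2, a G protein-coupled receptor for ATP and UTP, was 3.24-fold higher at 14 d than in confluent cells (1.70 ± 0.13, adjusted p = 0.00016), while P2rx6 was lower there (-1.70 ± 0.35, adjusted p = 0.0092). Of the 4 adenosine receptors only Adora2b was tested, and it rose by 1.57 ± 0.28 by 21 d (adjusted p = 0.0025) at levels below 1 RPKM.

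Among 14 enzymes that act on nucleotides or adenosine, 10 were tested. From subconfluent cells to 21 d 9 passed, where 50.7% of all genes did. Of the 9, 6 rose and 3 fell (median 0.72 against 0.04 over all genes). Enpp2, the secreted enzyme autotaxin of the nucleotide pyrophosphatase family, rose most, from 0.194 ± 0.0705 to 13.1 ± 0.0704 RPKM (6.27 ± 0.23, adjusted p = 3.5e-06). Between confluent cells and 24 h alone Enpp2 rose by 3.54 ± 0.20 on the log2 scale (adjusted p = 0.00046). These are RNA levels, and whether autotaxin acts on nucleotides in these cultures was not measured. Nt5e, the surface enzyme that turns AMP into adenosine, rose from 0.427 ± 0.0178 to 15.4 ± 1.02 RPKM (5.29 ± 0.25, adjusted p = 7.3e-06). Ada, adenosine deaminase, which removes adenosine, fell from 2.43 ± 0.13 to 0.278 ± 0.00698 RPKM (-3.00 ± 0.29, adjusted p = 0.00014), and adenosine kinase, Adk, fell by 0.33 on the log2 scale (± 0.08, adjusted p = 0.011). From 14 d to 21 d, the step in which Panx3 fell, 3 of the 10 passed, where 9.72% of all genes did, and 1 rose and 2 fell. Alpl fell (-1.47 ± 0.12, adjusted p = 0.00064), as did Adk (-0.97 ± 0.08, adjusted p = 0.00069), and Enpp2 rose (1.21 ± 0.18, adjusted p = 0.0065). Since Alpl was among the genes picked for likeness to Panx3, its fall here is no separate finding.

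**Figure D4:**
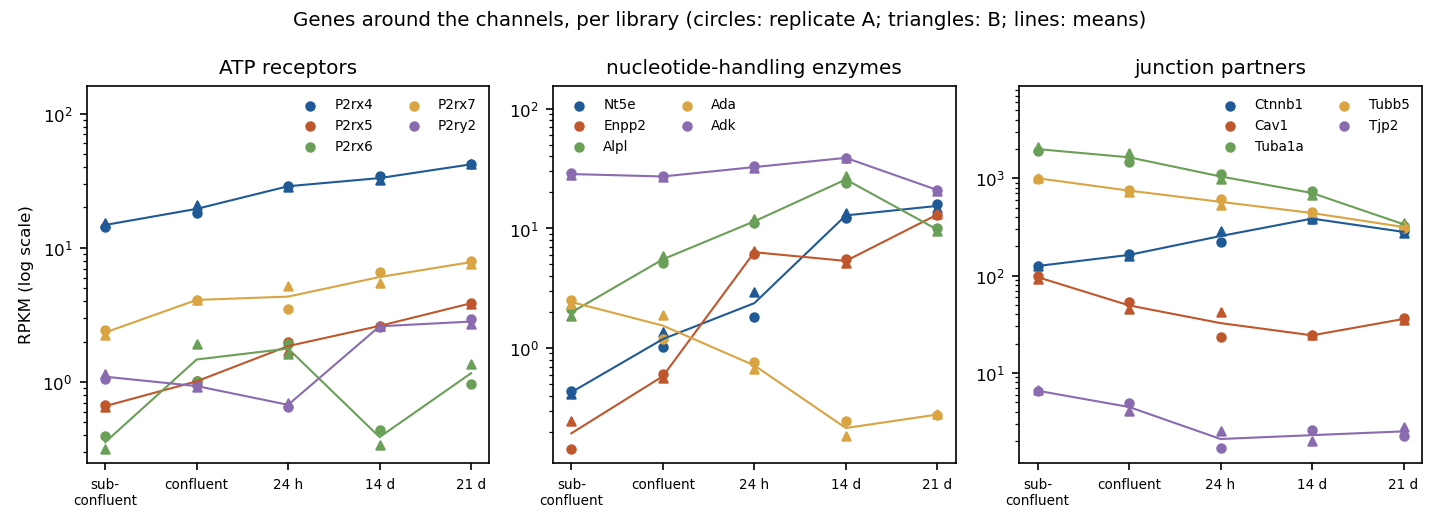
RPKM on a log scale (vertical axis) at the 5 stages (horizontal axis) for 5 ATP receptors, 5 enzymes of nucleotide or adenosine handling and 5 junction partner genes, with circles and triangles for replicates A and B and lines through the means. Nt5e and Enpp2 climb from below 1 RPKM to 15.4 and 13.1 RPKM at 21 d, Ada descends, and Tuba1a and Tubb5 descend while Ctnnb1 peaks at 14 d.

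Of 27 junction partners, proteins that bind, traffic or phosphorylate connexins, 26 were matched to a row and 25 tested. By 21 d against subconfluent cells 14 passed, where 50.7% of all genes did, and 13 of them fell and 1 rose (median -0.35 against 0.04 over all genes). By 14 d against confluent cells 10 passed, where 32.1% of all genes did, and 9 fell and 1 rose (median -0.21 against 0.03). The gene that rose in both was Ctnnb1, β-catenin of the adherens junction, from 125.4 ± 1.4 RPKM in subconfluent cells to 384.9 ± 0.419 RPKM at 14 d and 280.9 ± 7.57 RPKM at 21 d (1.28 ± 0.12 at 21 d, adjusted p = 9.7e-05). The largest falls by 21 d were in the tubulins Tuba1a (-2.45 ± 0.15, adjusted p = 1.9e-05) and Tubb5 (-1.55 ± 0.12, adjusted p = 5.2e-05), which form the microtubules along which connexins reach the membrane. From 14 d to 21 d, the step in which Gja1 fell by 1.09 on the log2 scale, 6 passed, where 9.72% of all genes did, and 5 fell and 1 rose. Those that fell included Cdh2, N-cadherin (-0.96 ± 0.15, adjusted p = 0.0089). Other large-pore and ATP-release genes were mixed: of 14 tested of 16, 8 passed by 21 d against subconfluent cells, where 50.7% of all genes did, and 2 rose and 6 fell (median -0.54 against 0.04). Calhm5, of the calcium homeostasis modulator family, rose (1.30 ± 0.09, adjusted p = 3.4e-05), and the volume-regulated channel subunits Lrrc8d (-1.32 ± 0.32, adjusted p = 0.011) and Lrrc8e (-1.19 ± 0.14, adjusted p = 0.0004) fell.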

How the data were processed

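RNA of MC3T3-E1 cells at 5 stages, 2 libraries each, was sequenced as 51-base read pairs. The submitters' processing notes name FastQC, TopHat2 2.0.9, R 3.0.1 and build mm10, and the counting tool is not given in the sources used here. The authors deposited whole-number read counts per Ensembl gene without normalization. The RPKM values were also deposited by the authors, scaled by gene length and by a read total that was lower than the summed counts, which were 1.44 to 1.60 times as large. For 2 libraries run in 2 lanes the merged column was used, and 1 incomplete row of the RPKM table was left out.

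Symbols and coordinates came from GENCODE vM21 (GRCm38), which named 39547 of 40620 genes. Counts were fitted in edgeR 4.0.16 (R 4.3.3) with TMM, its default filter over the 5 stages (20808 genes) and the quasi-likelihood test, 5 stage means over all 10 libraries, with Benjamini-Hochberg adjustment and, as a separate count, more than 2-fold change. The standard error of a change was taken as its size over the root of the F statistic. The pipeline was tested on simulated data. All 8 genes are named, and of the other lists at most the 2 largest rises and falls per comparison among genes that passed with a mean of at least 1 RPKM, with exceptions stated. The members and lists were chosen with earlier results of these data known. Alternatives were other scalings, DESeq2 1.42.0, other filters and thresholds, limma-trend 3.58.1 on log2(RPKM + 1) and log2(RPKM + 0.1), fewer stages, the replicate letter as a block and each library left out. Limits for counts of 0 cover counting error only. Some genes and sequences are not reported here.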

Additional observations from a re-analysis of the deposited data

How the results depend on the processing

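Of 836 alternative values for the 42 member changes, 789 kept their direction and side of the threshold, 20 lost and 10 gained a call, and 17 changed sign, none of which had passed. Within each pair of index sequences, the letters A and B go with the index sequence, as the column headers show. The correlation of A minus B between stages ran from -0.33 to 0.32, above 0.1 in 2 of 10 stage pairs. With the replicate block, 2, 2, 2, 2, 5 and 5 members passed in the 6 comparisons, and Panx2 did not (2.89, adjusted p = 0.053). With each library left out, members passed in confluent against subconfluent numbered 1 to 2, in 24 h against confluent 1 to 3, and in 14 d against 24 h 1 to 4. In 21 d against 14 d there were 2 to 3, in 14 d against confluent 4 to 5 and in 21 d against subconfluent 4 to 6. With only the 2 stages compared, 0 passed in 24 h against confluent (2, Gja1 and Panx3, at an unadjusted p under 0.05 in edgeR, and 2 with DESeq2 on all libraries; lowest adjusted p of any gene 0.0739) and 1 in 14 d against 24 h. At least 10 counts in every sample left 1 in 14 d against 24 h, since Gjb5 was not tested. More than 2-fold left 1 in confluent against subconfluent, 1 in 24 h against confluent and 2 in 14 d against confluent. The step of Gjc1 from 24 h to 14 d passed with library size alone (adjusted p = 0.03), DESeq2 (0.043) and limma-trend on both RPKM scales (0.029 and 0.023). Library size alone moved the median of all genes by -0.13 in 24 h against confluent, -0.20 in 14 d against confluent and -0.12 in 21 d against subconfluent, less than every member change that passed there. On log2(RPKM + 1) the change of Gjb5 from 24 h to 14 d was -0.58, since its levels are below the pseudocount. Using the sum of the 2 lanes, chosen after seeing the data, changed no count of members. With counts in place of RPKM, the share of Gja1 among connexins was 73.3% (subconfluent), 79.1% (confluent) and 60.7% (21 d).
The sign changes came when single libraries were left out, over which Gja4 ran from -0.04 to 0.56 in confluent against subconfluent, -0.09 to 0.44 in 24 h against confluent, -1.58 to 0.20 in 14 d against 24 h and -1.40 to 0.38 in 14 d against confluent. Likewise Panx1 ran from -0.17 to 0.07 and Panx2 from -1.28 to 5.30 in confluent against subconfluent, Gjb5 from -0.76 to 0.09 in 24 h against confluent, Panx1 from -0.08 to 0.14 in 21 d against 14 d and Gja1 from -0.10 to 0.02 in 14 d against 24 h, where at least 10 counts in every sample also gave 0.01. Gja4 and Panx2 had at most 38 counts in any library, and the cause of these shifts was not tested.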
